A study of Arabidopsis thaliana with 4 samples.

Results

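Siliques open along the valve margins, and 7 genes of lignification and cell wall breakdown in siliques and anthers are described here for their FUL binding sites. The 7 genes are *NST1* (AT2G46770), *NST3* (AT1G32770, also *SND1*), *ADPG1* (AT3G57510), *ADPG2* (AT2G41850), *QRT2* (AT3G07970), *CEL6* (AT1G64390) and *MAN7* (AT5G66460), among 27444 protein-coding genes on chromosomes 1 to 5. They were chosen by locus, for their function in silique and anther opening, and no measured value entered the rule. Earlier results of these data were known when they were chosen. For each gene, every site of the deposited ChIP-Seq list was taken, at any score, whose maximum fell into a window from 3000 bp before the ATG to 1000 bp past the stop codon, and where none did, the nearest site is given. Of the 7 genes, 3 had a site in this window, namely *MAN7*, *CEL6* and *ADPG2*, with 1 site each. The windows of *NST1*, *NST3*, *ADPG1* and *QRT2* contained none.

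FUL is a MADS domain transcription factor that is active in the valves of the fruit and keeps the valve margin programme out of them. In the margin, a strip of cells lignifies while a neighbouring layer loses the pectin and other polysaccharides that hold its cells together, and the tension of the drying valves then splits the fruit. NST1 and NST3 are NAC domain factors that switch on secondary wall thickening. ADPG1, ADPG2 and QRT2 are polygalacturonases, which cut pectin, whereas CEL6 is a cellulase of the glycosyl hydrolase 9 family and MAN7 a mannanase, which cuts mannan.

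The experiment consisted of 2 FUL-GFP ChIP samples and 2 input samples, all from pistils and siliques of stages 12 to 16 of *ful-1* plants, of a mixed Col/Ler background, that carry FUL fused to GFP under the *FUL* promoter and were grown in long days. A GFP antibody was used for the ChIP samples, whereas the input is DNA of the same kind of chromatin that was not precipitated. Whole pistils and siliques were used at stages before the fruit opens, so that a site cannot be assigned to valve or valve margin cells, and because the list contains no expression values, the tissue could not be checked by marker genes. The authors combined the replicates into a single list of 2831 sites on TAIR9, with 1 score per site for the enrichment over the input. The number of reads per library is unknown, the score has no error, and no difference between scores could be tested against the spread between replicates. Scores ranged from 2.99 to 1071.13 with a median of 4.43 (quartiles 3.4 and 6.81). They took only 234 different values, so that many sites share a score. The list itself marks no false discovery rate limit, and sites of any score are described. Whether a described site would pass such a limit cannot be told from the list.

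Within the windows, *MAN7* had the highest score of the 7 genes. It lies on the reverse strand of chromosome 5, from 26538395 to 26541692, and its coding sequence begins at 26540837. The site spans 26541230 to 26541551 (321 bp) and has a score of 6.81, which equals the upper quartile of the list and is shared by 155 sites (ranks 598 to 752). Of the 2831 sites, 73.4% have a lower score. Position 26541314, where the enrichment is maximal, is located 477 bp before the ATG and 378 bp past the annotated transcript start, and the whole site falls into the first exon, in its untranslated part. The site was longer than the median of its score class, since the 155 sites with a score of 6.81 have a median length of 219 bp. It also lies 672 bp downstream of the stop codon of AT5G66470, a gene for an Era-like GTP-binding protein, so the list alone does not assign it to *MAN7*. The nearest other site was 16696 bp away, measured between the maxima.

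*CEL6*, called *GH9C2* in the annotation, lies on the forward strand of chromosome 1, from 23911024 to 23915236. Its site spans 23913749 to 23913999 (250 bp) and has a score of 6.5, a value that no other site has, at rank 762. It thus ranks below the sites that share the score of *MAN7*, and 73.1% of the sites score lower. The maximum, at 23913989, is 2660 bp downstream of the start codon in coding exon sequence (exon 6 of 8), only 10 bp from the end of the site. *CEL6* is the one protein-coding gene that has this site in its window. Outside the window, a site with a higher score of 9.55 (rank 347, shared with other sites) is listed from 23902802 to 23903143, 8294 bp before the *CEL6* ATG. On the other side, 8633 bp past the stop codon, a weak site (score 3.4) is listed. The sequence of 201 bases around the maximum (chr1:23913889-23914089, forward strand, TAIR10.1 from RefSeq) is shown because it is the stronger of the sites inside a coding region. A CArG box, which MADS domain proteins bind, is CC followed by 6 A or T bases and GG. Several stretches of this sequence are equally similar to it, and capitals mark the first of them.
*CEL6* site: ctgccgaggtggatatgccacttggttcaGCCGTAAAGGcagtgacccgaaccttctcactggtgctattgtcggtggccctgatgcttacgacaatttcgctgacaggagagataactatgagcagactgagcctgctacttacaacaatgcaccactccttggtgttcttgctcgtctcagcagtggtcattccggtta
The capitals differ from the box at 3 positions, and the GC content of the 201 bases is 51.7%.

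*ADPG2*, which the annotation calls *PGAZAT*, had the weakest of the sites. The gene lies on the reverse strand of chromosome 2, from 17461655 to 17464242. The site spans only 25 bp, from 17462218 to 17462243, and has a score of 3.4, the lower quartile and most frequent value of the list, shared by 689 sites (ranks 1835 to 2523). Of these 689 sites, 26.3% are 25 bp long or shorter, and their median length is 52 bp. The maximum is listed at the first base of the site, which is the case for 953 of the 2831 sites. It lies 1841 bp downstream of the start codon, in the coding sequence of exon 8 of 9. The site is closer to the start codon of a neighbour, AT2G41840, a ribosomal protein S5 family gene (820 bp upstream), and is also within reach of AT2G41835, a zinc finger gene (2804 bp upstream). The nearest other sites are further off, 16810 bp downstream of the *ADPG2* stop codon with a score of 21.31 and 13496 bp upstream of its start codon with a score of 4.81. Measured between the maxima, the nearest other site was 15337 bp away. Around the maximum (chr2:17462118-17462318, forward strand, which is opposite to the gene) the reference reads as follows, again with the most similar stretch to a CArG box in capitals.
*ADPG2* site: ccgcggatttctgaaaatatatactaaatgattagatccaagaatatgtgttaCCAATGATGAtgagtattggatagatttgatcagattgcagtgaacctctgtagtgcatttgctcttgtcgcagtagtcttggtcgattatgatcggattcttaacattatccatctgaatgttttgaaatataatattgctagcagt
This stretch has 2 mismatches to the box.

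**Figure D1:**
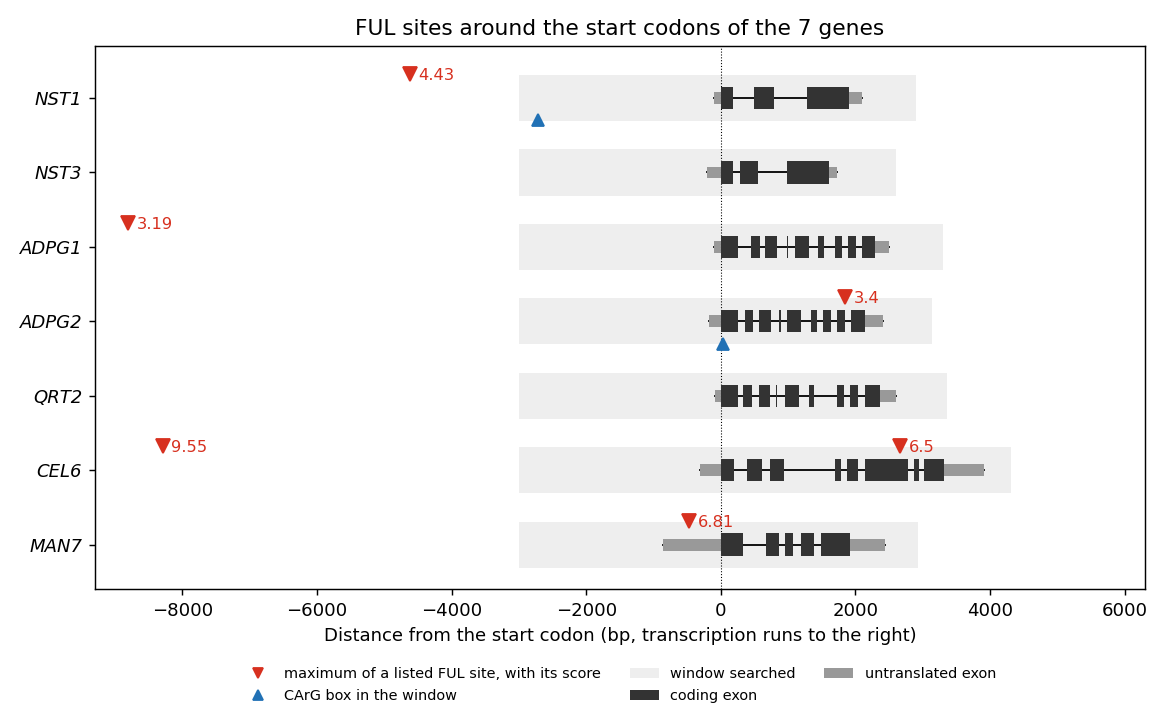
Positions of listed FUL sites (red, with the score of the authors, which has no unit) and of CArG boxes (blue) along each of the 7 genes, as the distance in bp from the start codon. Grey bars are the windows and black boxes the coding exons. Sites in the windows are those of *ADPG2* (3.4), *CEL6* (6.5) and *MAN7* (6.81), and the nearest sites of *NST3* and *QRT2* lie beyond the plotted range.

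The sites at *MAN7*, *CEL6* and *ADPG2* each lay wholly within 1 exon, and that of *MAN7* was upstream of the start codon, while those of *CEL6* and *ADPG2* were between start and stop codon. In the whole list, 43.5% of the sites lie wholly within 1 exon of a protein-coding gene. Of all 4540 pairs of a site and a protein-coding gene in reach, 26.5% have the maximum between start and stop codon and 56.4% have it upstream.

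**Figure D2:**
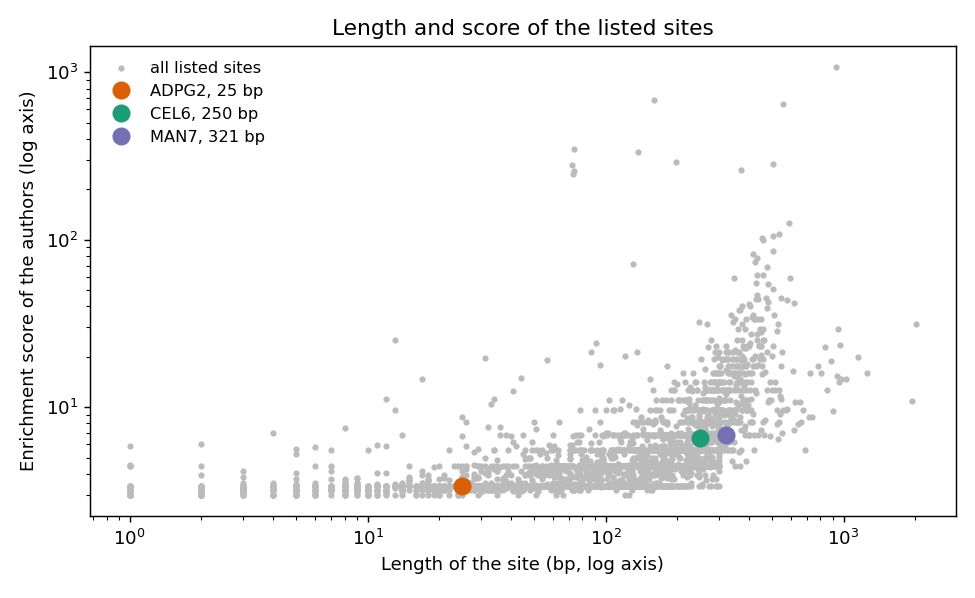
Length in bp and score of each of the 2831 sites (grey, both axes logarithmic), with the sites at *ADPG2* (25 bp), *CEL6* (250 bp) and *MAN7* (321 bp) in colour. The *CEL6* and *MAN7* sites have scores above the median of 4.43 and lengths above the median of 124 bp, and the *ADPG2* site is below both medians.

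Among the regulators of secondary wall thickening, *NST1* and *NST3* had no site in the window. The nearest site to *NST1* (chromosome 2, 19220725 to 19222916, reverse strand) has its maximum 4621 bp upstream of the start codon. It spans 19227435 to 19227668 and has a score of 4.43, the median of the list, shared by 325 sites. It lies closer to the start codon of AT2G46780, an RNA-binding protein gene, 2073 bp upstream of it. On the other side of *NST1*, a stronger site with a score of 17.65 is 22601 bp downstream of the stop codon. *NST3* (chromosome 1, 11865229 to 11867154, reverse strand) is further from any site. The nearest one, at 11877044 to 11877111, also has a score of 4.43, and its maximum is 10126 bp upstream of *NST3*, inside the coding sequence of AT1G32790 (*CID11*). Among the 7 genes, the member closest to the limit of the window from outside was thus *NST1*, and with a window of 5000 bp upstream and 2000 bp downstream 4 of the 7 genes had a site, beside 20.0% of all protein-coding genes.

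Of the polygalacturonase genes, *ADPG1* and *QRT2* had none. *ADPG1* (chromosome 3, 21283338 to 21285941, reverse strand) shares 76.8% of the aligned coding bases with *ADPG2*. Its nearest site is 14 bp long, from 21294646 to 21294660, scores 3.19, and is located 8804 bp before the *ADPG1* ATG and 1952 bp before that of AT3G57520 (*SIP2*, seed imbibition 2). *QRT2* (chromosome 3, 2540913 to 2543613, forward strand) shares 62.8% of the aligned coding bases with both *ADPG1* and *ADPG2*. It was the most distant of the 7 genes, with the nearest site 26846 bp upstream of its start codon, from 2514160 to 2514287, with a score of 3.79. This site is 15 bp upstream of the start codon of AT3G07880 (*SCN1*). On the other side, the next site was 81755 bp downstream of the stop codon. As the lowest listed score is 2.99, enrichment weaker than this could not be detected at these genes.

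Reads with several matches in the genome were discarded by the authors, so that reads from sequence repeated elsewhere did not contribute to the list. In the windows of the 7 genes, all words of 36 bases (*NST3* and *CEL6*) or at least 99.17% of them (*ADPG1*) were found once in the nuclear genome. The windows of the 4 genes without a site were thus nearly free of repeated words of this length. Only exact repeats were counted, whereas the authors allowed mismatches in mapping. Loss of reads to nearly identical sequence was therefore not examined. The length of the reads is not given in the sources used here, and with words of 25 bases the lowest share was 97.87% (*MAN7*).

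The distances can be read against those of all protein-coding genes. A site inside the coding region, as in *ADPG2* and *CEL6*, was found for 1096 of 27444 genes (4.0%), and 6.9% of the genes have a site nearer than the 477 bp of *MAN7*. The remaining genes were spread over the distribution, since 24.0% of the genes have a nearer site than *NST1*, 37.0% than *ADPG1*, 40.8% than *NST3* and 70.3% than *QRT2*. The median distance was 4621 bp for the 7 genes and 14006.5 bp for all genes.

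**Figure D3:**
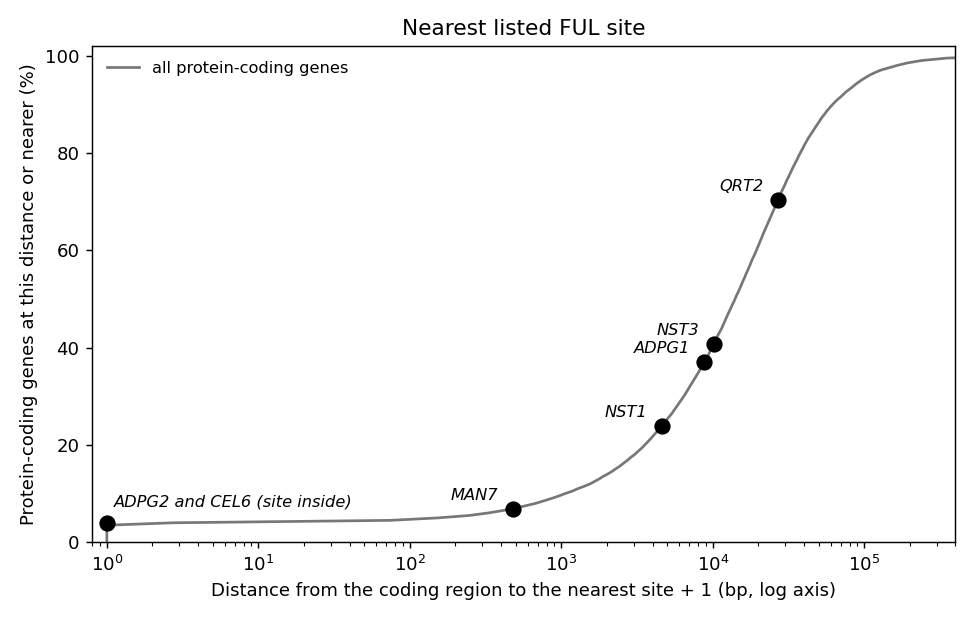
Share of the 27444 protein-coding genes (in %) with a listed site within a given distance of the coding region (logarithmic axis, 1 bp added). Points mark the 7 genes, with a site inside *ADPG2* and *CEL6*, 477 bp from *MAN7* and 26846 bp from *QRT2*.

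In the window, 3 of the 7 genes (42.9%) had a site of any score, and 3830 of the 27444 protein-coding genes did (14.0%). With sites at or above the median score 2 genes remained, *CEL6* and *MAN7*, beside 7.97% of all genes. At or above the upper quartile 1 gene remained, *MAN7*, beside 3.94% of all genes. The windows of the 7 genes, of 5608 to 7314 bp, are all longer than the median window of 5568 bp. The highest score per gene had a median of 6.5 for the 3 genes with a site and of 4.43 for the 3830 genes. With so few genes and single combined scores no test was made, and these shares describe the list.

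A wider set of 69 genes with related functions was examined in the same way. A site of any score was found for 13 of them (18.8%), a share close to that of all protein-coding genes (14.0%), and for 3 of them it was at or above the upper quartile. Among the 25 NAC, MYB and homeodomain genes of secondary wall regulation, which include *NST2* and the *VND* genes, 3 had a site, with highest scores from 3.0 to 5.57. In the lignin pathway 4 of 21 genes had a site. The highest score was that of *LAC4* (AT2G38080), a laccase that polymerizes lignin, 7.39 at a site 2301 bp downstream of the start codon in coding sequence (chromosome 2, 15936780 to 15937043). *C4H* (AT2G30490), the cinnamate 4-hydroxylase of the phenylpropanoid pathway, had 3 sites, and the highest of them, with a score of 6.81, lay 183 bp upstream of the start codon in the untranslated exon (chromosome 2, 12995818 to 12995969). None of the 3 cellulose synthase genes of the secondary wall had a site.

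The mannanase and glycosyl hydrolase 9 families gave lower scores than *MAN7* and *CEL6* themselves. Of the 6 other mannanase genes 2 had a site, with highest scores of 3.95 and 4.37, and of the 7 other glycosyl hydrolase 9 genes 2 had one, with 4.43 and 5.57. *QRT3*, a polygalacturonase gene that acts with *QRT2* in the separation of pollen, had a site with a score of 4.43, and *QRT1* had none. The score of *QRT3* was higher than the 3.4 of *ADPG2*. Of the 5 regulators upstream of the dehiscence genes (*SHP1*, *SHP2*, *IND*, *ALC* and *SPT*), only *SHP2* had a site. Its score of 29.21 (rank 60) is the highest of the wider set and above that of each of the 7 genes.

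**Figure D4:**
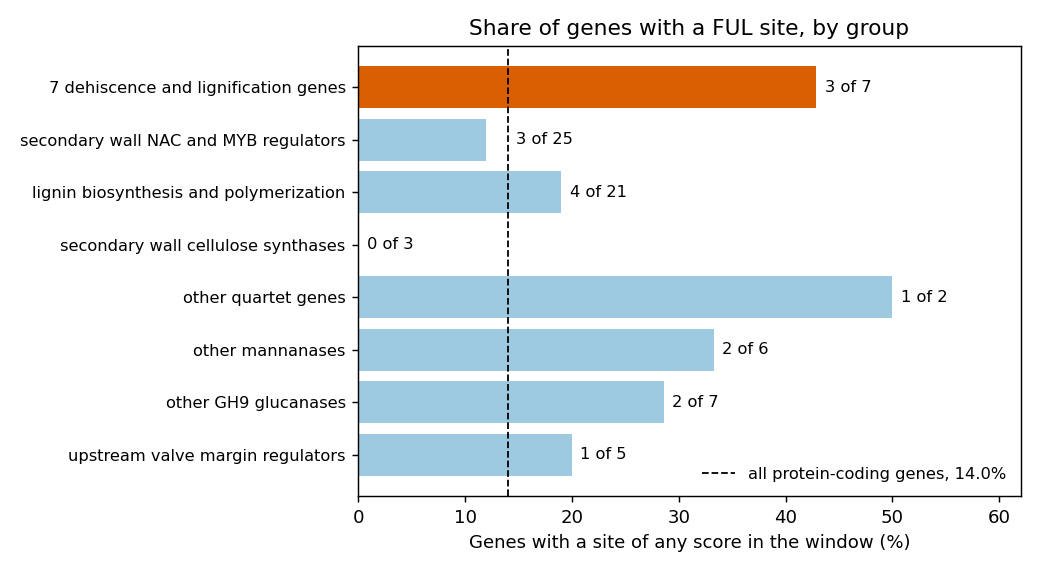
Share of genes (in %) with a site of any score in the window, for the 7 genes (orange) and for groups of related genes (blue), with the counts beside the bars. The dashed line is the share of all protein-coding genes (14.0%), and several groups hold so few genes that 1 gene moves the bar far.

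The sites at *MAN7*, *CEL6* and *ADPG2* had no CArG box in the 100 bp on either side of the maximum, whereas 4.77% of all sites have one, so that its absence from these sites is the usual case. None had a box with at most 1 mismatch, which 32.1% of all sites have, and none had the wider form of C, 8 A or T bases and G, which 10.5% have. At *MAN7* the most similar stretch has 2 mismatches, as the best stretch of 54.9% of all sites does, and its centre is 44 bp from the maximum. It is shown with 10 bases to each side (chr5:26541343-26541372, forward strand, opposite to the gene) and with the stretch in capitals.
*MAN7* site: tcattttattTTATTTATGGggtcggcctc
Because the box reads the same on both strands, the forward strand alone was searched.

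CArG boxes did occur elsewhere in the windows of *NST1* and *ADPG2*, with 1 box each. Of the 7 genes 2 (28.6%) thus had a box in the window, and 31.3% of all protein-coding genes have one. The *NST1* box lies 2709 bp upstream of the start codon (chr2:19225526-19225535), 1912 bp from the maximum of the nearest site. The *ADPG2* box is in the first coding exon, 36 bp downstream of the start codon (chr2:17464018-17464027) and 1805 bp from the maximum of the site in that gene. The boxes are shown in capitals with 10 bases to each side, on the forward strand, since they are the only exact boxes in the windows of the 7 genes.
*NST1* box: tcgtactcttCCATTTTTGGtctttctata
*ADPG2* box: tcaaaagagcCCATAATAGGaaaacggtaa
No site of any score was listed at these boxes. A match of these letters is a description of the sequence and does not show binding.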

How the data were processed

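FUL-GFP ChIP (n = 2) and input (n = 2) samples were sequenced. The authors mapped the reads with SOAPv2 on TAIR9 (uniquely mapped reads only, organelle reads removed) and called peaks with CSAR against the input. They deposited 1 score per site, combined over the replicates, with start, end and maximum. Versions and read length are not given in the sources used here.

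Positions are given as listed. Genes and sequences are from RefSeq (TAIR10.1). The chromosome assembly was not altered between the TAIR9 and TAIR10 releases, and all 2831 site ends lie within the TAIR10.1 chromosomes. The outermost start and stop codons of each protein-coding gene were used. Of the 69 genes of the wider set, 68 have their name in the annotation, and *MAN4* was taken by its locus. The 7 genes and the lists were chosen with earlier results of these data known. Named were the 7 genes, the coding genes that share their sites or lie nearest to them, and genes of the wider set with a site at or above the upper quartile. Other genes, such as *QRT1*, *QRT3* and *IND*, were named after their values were seen. No test was made, since no value has a replicate error. Assignment and motif search were tested on simulated data. The work used Python 3.11.15, pandas 2.3.3, Biopython 1.88 and matplotlib 3.10.9.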

Additional observations from a re-analysis of the deposited data

How the results depend on the processing

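The number of genes and sites was recomputed with the midpoint of each site, with any overlap, with transcript ends, with narrower and wider windows, with score limits and with the nearest start codon alone. Of 23 counts of genes or sites under such alternatives, 19 stayed within 1.5 times the main count, and the other 4 came from score limits. This limit is coarse for the main count of 3 members, since counts of 2 and 4 also fall within it. With sites at or above the upper quartile of the scores, 1 of the 7 genes and 1 site were left, and 3 genes of the wider set. With sites at or above the median, 8 genes of the wider set were left. With the nearest start codon alone, *ADPG2* was lost and 2 genes were left. The highest scores of *MAN7*, *CEL6* and *ADPG2* were the same in each window and placement tried (15 values). All 4 other searches for a CArG box at the sites of these genes also found 0, and with words of 25 or 50 bases the share of unique sequence stayed within 5 percentage points in each of the 7 windows. No paired analysis was possible because the list holds 1 combined score per site and no value per replicate, and leaving out a replicate was not run for the same reason. With an unknown depth and no score below 2.99 in the list, weaker enrichment is not detectable.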

Other observations

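After the sequences had been seen, the sequences around each maximum (100 bp on either side) were also searched for CACGTG, the G-box core that many plant bHLH and bZIP factors bind and that reads the same on both strands. It was found at the nearest sites of 4 of the 7 genes, namely *MAN7*, *NST1*, *NST3* and *ADPG1*, and at 13.1% of all 2831 sites. Of these 4 sites, only that of *MAN7* lies in the window of its gene, where the G-box spans 26541259 to 26541264 on chromosome 5 with its centre 52 bp from the maximum. At the site upstream of *NST1* the centre of the G-box was 6 bp from the maximum. Of the genes without a site in the window, *NST1* has the closest one, 4621 bp upstream of its start codon. The sequence around that site is therefore shown (chr2:19227343-19227543, forward strand, TAIR10.1), with the G-box in capitals.
Site upstream of *NST1*: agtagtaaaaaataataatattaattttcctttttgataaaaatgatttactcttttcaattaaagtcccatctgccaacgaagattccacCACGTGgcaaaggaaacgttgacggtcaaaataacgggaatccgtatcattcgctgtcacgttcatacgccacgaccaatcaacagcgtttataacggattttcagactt
No exact CArG box and none with 1 mismatch was found in it. Among the nearest sites of the 7 genes, none had an exact CArG box within 100 bp of the maximum, and only that of *QRT2* had one with 1 mismatch. The G-box was chosen with the sequences known, so its counts are a description and the share was not tested.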
